A study of Rattus norvegicus with 6 samples.

Results

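A set of 10 genes of the blood vessel wall was followed across the 6 arrays of the series: the tight junction genes Cldn5, Ocln and Tjp1, the glucose transporter gene Slc2a1, the endothelial genes Pecam1, Vwf and Cdh5, and the leukocyte adhesion genes Icam1, Vcam1 and Sele. Members were taken by the gene name printed beside each probe in the scanner tables, and all probes of a named gene were kept. This gave 16 probes for 10 genes, out of 41012 probes and 15107 genes named by symbol on the array. For 6 members there is 1 probe, while Ocln, Vwf and Cdh5 have 2 each, and Tjp1 has 4.

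The tissue was formalin-fixed, paraffin-embedded (FFPE) spinal cord of adult Lewis rats, and each array carried RNA amplified from a pool of 5 rats of one group, or of 3 rats for the healthy controls. ENMO, the model of neuromyelitis optica (NMO), received T cells specific for myelin basic protein on day 0, and the antibody NMO-IgG followed on day 4. NMO-IgG is IgG prepared from a patient with the disease, so it stands for 1 source. EAEcoI received the same T cells and control IgG, and EAEcoP the same T cells and PBS. The 3 other groups received no T cells and were given NMO-IgG only, control IgG only (human IgG) or nothing (healthy control). Tissue was collected 24 hours after the antibody. The model is passive: the T cells and the antibody were injected, and the antibody acted for 1 day. ENMO, EAEcoI and EAEcoP are called all T below, and the other 3 groups all non-T. With 1 array per group, no pair of groups can be tested, and only all T against all non-T (3 arrays against 3) has a test, in which the 3 arrays of a side also differ in antibody.

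Tight junctions seal neighbouring endothelial cells of the central nervous system and limit what passes between them. Claudin-5 and occludin span the membrane there, and zonula occludens 1, the product of Tjp1, ties them to the cytoskeleton. Leukocytes roll on selectins such as E-selectin (Sele), then hold to ICAM-1 and VCAM-1 through integrins before they cross the vessel wall, and inflammatory cytokines are textbook inducers of these adhesion molecules.

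The letters that were read are shown for the probes on which the results turn. Pecam1 and the brighter Tjp1 probe are the members that separated the arrays by T cells, and the dimmer Tjp1 probe had the higher mean with T cells. The Cdh5 probe spans an intron in the listed genome positions. All are 60-base probes, printed 5′ to 3′ from the scanner tables.
Pecam1 probe: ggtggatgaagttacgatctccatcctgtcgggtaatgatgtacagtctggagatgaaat
Tjp1 brighter probe: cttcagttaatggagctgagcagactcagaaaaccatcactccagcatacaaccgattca
Tjp1 dimmer probe: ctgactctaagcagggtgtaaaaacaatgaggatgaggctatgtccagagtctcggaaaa
Cdh5 brighter probe: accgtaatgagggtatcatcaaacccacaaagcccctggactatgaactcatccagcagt
The tables place the Pecam1 probe at chr10:96057717-96057776, the brighter Tjp1 probe at chr1:119691677-119691736, the dimmer one at chr1:119708180-119708239 and the Cdh5 probe at chr19:788852-790286, all on the minus strand of a rat assembly that they do not name. The Tjp1 probes are 16503 bases apart. Since the gene is listed on the minus strand, the brighter probe is the one nearer the 3′ end.

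Signals are given as normalized signal intensity (NSI), the quantile-normalized spot signal on a linear scale. A probe was taken as measured on an array when the scanner software marked it well above background. NSI of different probes cannot be set against each other as levels of their genes. The arrays differed before normalization: 44.4% to 60.2% of spots were well above background on the arrays with T cells and 35.4% to 41.7% on those without. Of the 16 member probes, 11 to 12 were well above background on each array with T cells and 8 to 10 on each array without. On all 6 arrays this held for the brightest probe of 7 members. Low values therefore bound several of the results below. The members Icam1 and Slc2a1 have a probe printed 10 times per array, and 263 such probes on the array give the error of a single spot. Between an NSI of 30 and 100, where most members lie, the pooled SD of a spot was 0.49 on the log2 scale, so that 1 SD of a difference between single spots on 2 arrays was 1.62-fold. This covers spotting and scanning only, not the pools or the amplification.

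**Figure D1:**
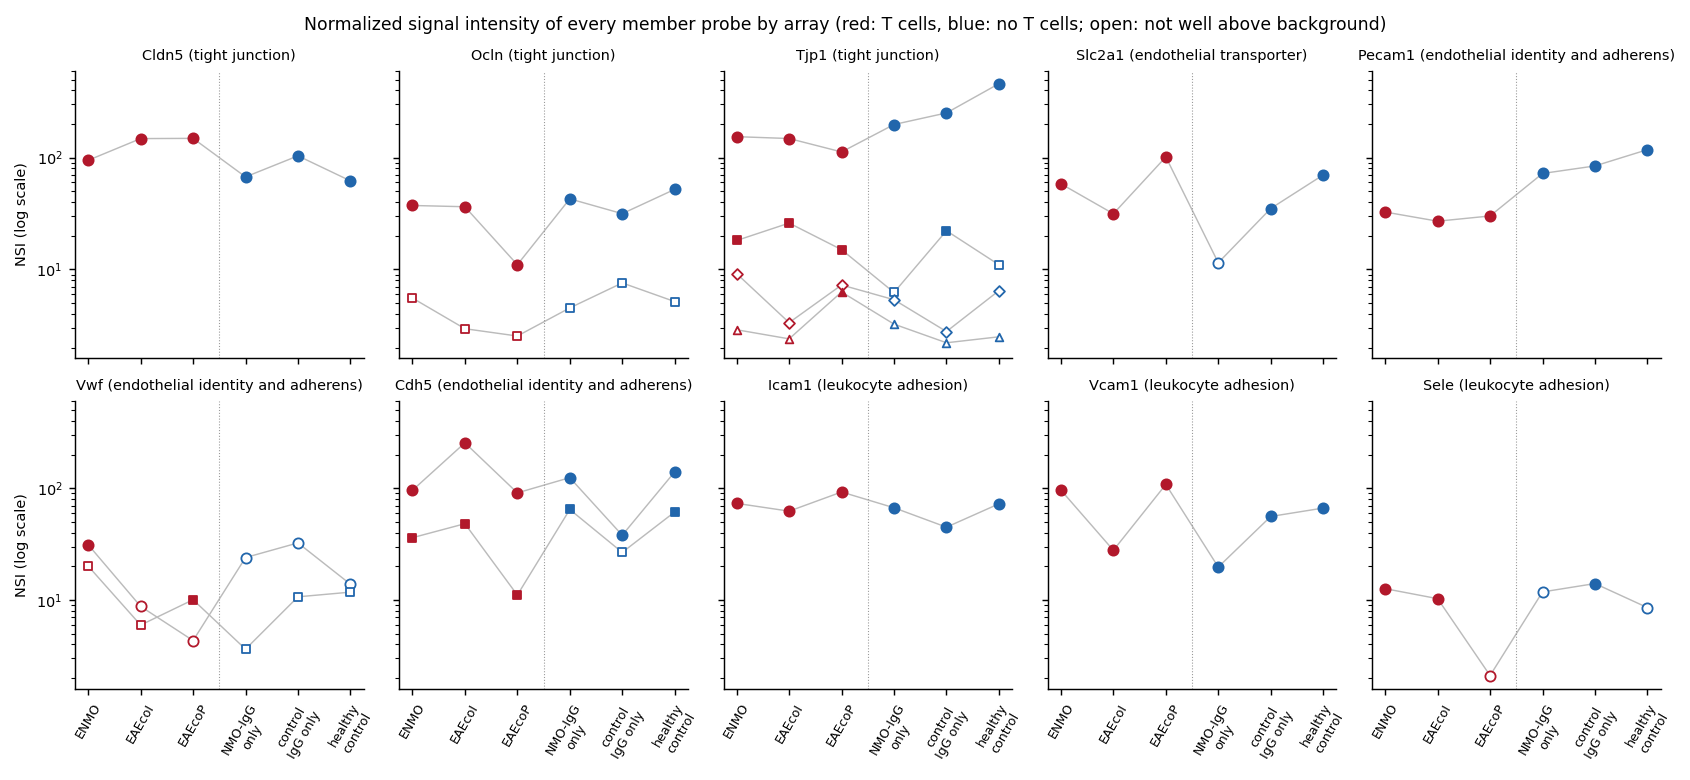
NSI (log scale) of every member probe on the 6 arrays, with the brightest probe of a gene as the large circle and other probes as small symbols. Red marks arrays with T cells, blue arrays without, and open symbols values not well above background. Pecam1 and the brightest Tjp1 probe are lower on the 3 red arrays than on the 3 blue ones.

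Among the tight junction genes, Tjp1 was lower and Cldn5 higher in all T, and only Tjp1 separated the arrays. The brightest Tjp1 probe read 154 in ENMO, 148 in EAEcoI and 112 in EAEcoP, against 198 with NMO-IgG only, 251.3 with control IgG only and 459 in the healthy control. All 3 arrays with T cells lay below all 3 without, and the healthy control was the highest. The ratio of mean NSI was 2.19-fold lower in all T (138 against 303), and 1.89-fold and 2.21-fold lower on slides 1 and 2. In limma, fitted over all probes, this gave a log2 difference of -1.05 ± 0.49 (SE) with an adjusted p of 0.451, so the difference did not pass the test. Without the healthy control the log2 ratio of means went from -1.13 to -0.70 and was no longer past 2-fold.

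The dimmer Tjp1 probe did not show this order. It read 18.15, 25.97 and 15.02 in ENMO, EAEcoI and EAEcoP, and 22.2 with control IgG only, while NMO-IgG only (6.21) and the healthy control (11) were not well above background. Its ratio of means was 1.501-fold higher in all T. The other 2 Tjp1 probes, which the tables list without an Ensembl transcript, were well above background on 1 array at most, with NSI of 2.21 to 9.16. The lower Tjp1 signal in all T thus rested on 1 of 4 probes.

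Cldn5 read 94.7, 148 and 149 in ENMO, EAEcoI and EAEcoP, against 67.3 with NMO-IgG only, 104 with control IgG only and 62.0 in the healthy control. The EAE arrays were the highest, but ENMO lay below control IgG only, so the sides overlapped. The mean was 1.68-fold higher in all T, and limma gave 0.76 ± 0.48 (log2, SE) with an adjusted p of 0.546. The higher side was the same on both slides, at 1.17-fold on slide 1 and 2.29-fold on slide 2. Within each pair that received the 2 kinds of IgG, the NMO-IgG array was the lower one, by 1.56-fold with T cells and 1.54-fold without, both within 1 SD of a difference between single spots.

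Ocln read 37.3, 36.4 and 11.01 in ENMO, EAEcoI and EAEcoP, against 42.8, 31.5 and 52.0 with NMO-IgG only, control IgG only and in the healthy control. EAEcoP stood apart as the lowest array, at 4.73-fold below the healthy control. The mean was 1.49-fold lower in all T (limma adjusted p = 0.644), and the direction turned without normalization between arrays. The second Ocln probe was not well above background on any array.

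Slc2a1 encodes GLUT1, the glucose transporter of barrier endothelium. Its means over the repeated spots were 58.3 in ENMO, 31.5 in EAEcoI and 101 in EAEcoP, against 11.5 with NMO-IgG only, 35.1 with control IgG only and 70.0 in the healthy control. EAEcoP was the highest and NMO-IgG only the lowest array, and the other 4 overlapped. The mean was 1.64-fold higher in all T (limma adjusted p = 0.635), and without the healthy control the log2 ratio went from 0.71 to 1.45. On slide 1 the arrays with T cells were 2.28-fold higher, and on slide 2 EAEcoI was 1.29-fold lower than the mean of NMO-IgG only and the healthy control. NMO-IgG only had the lowest mean, and its spots ran from 5.36 to 18.16, with 2 of 10 well above background. Those of the next array by mean, EAEcoI, ran from 23.1 to 47.9. The lowest spot with control IgG only, 18.15, reached into the range of NMO-IgG only, and no spot of another array did. Of the other neighbours in the order, the healthy control and ENMO, and control IgG only and EAEcoI, did not differ beyond 1.96 SE of their spots. The highest array, EAEcoP, exceeded the healthy control by 1.45-fold and ENMO exceeded control IgG only by 1.66-fold, both past that limit.

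Pecam1 encodes CD31, which sits at the contacts of endothelial cells and is also carried by platelets and leukocytes. It gave the clearest separation among the members. It read 32.6 in ENMO, 27.0 in EAEcoI and 30.1 in EAEcoP, against 72.2 with NMO-IgG only, 84.3 with control IgG only and 118 in the healthy control. The 3 arrays with T cells lay within 1.21-fold of each other and all below the other 3, of which the healthy control was again the highest. The mean was 3.06-fold lower in all T (29.9 against 91.5). The limma log2 difference was -1.59 ± 0.47 (SE) with an adjusted p of 0.261 over 27456 probes, which did not pass. The same side was lower on slide 1, by 2.69-fold, and on slide 2, by 3.52-fold. With normexp background correction the difference shrank to -0.71 on the log2 scale and was no longer past 2-fold.

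The rule that all 3 arrays with T cells lie on one side of the other 3 with means more than 2-fold apart was met by 2 of 14 member probes in the lower direction, Pecam1 and the brightest Tjp1 probe, and by none in the higher direction. Over all 27268 probes measured on at least 1 array, 3.67% met it in the lower and 8.93% in the higher direction. With normexp background correction or without normalization between arrays, neither was counted. With the healthy control left out, Pecam1 was counted and Tjp1 was not. Without the 2-fold limit the same 2 members were counted, against 6.79% of probes lower and 11.3% higher. Limma called 0% of probes after adjustment at 0.05. Before adjustment 3129 probes were under 0.05, and of the member probes only Pecam1 was. In these bulk samples, fewer cells of a type and less RNA per cell cannot be told apart. Mog, a gene of myelin-forming cells, was also lower with T cells (368, 201 and 136 against 409, 693 and 1574, limma adjusted p = 0.304), and so was Gp1bb (225, 62.2 and 130 against 466, 578 and 291, adjusted p = 0.276) among the 6 measured platelet genes. Of the other 5 platelet genes, Itgb3 was 2.29-fold lower, Gp9 3.59-fold, Pf4 2.25-fold and Treml1 1.46-fold higher, and Ppbp 1.06-fold lower in all T. The part of these cells in the Pecam1 result was not tested.

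**Figure D2:**
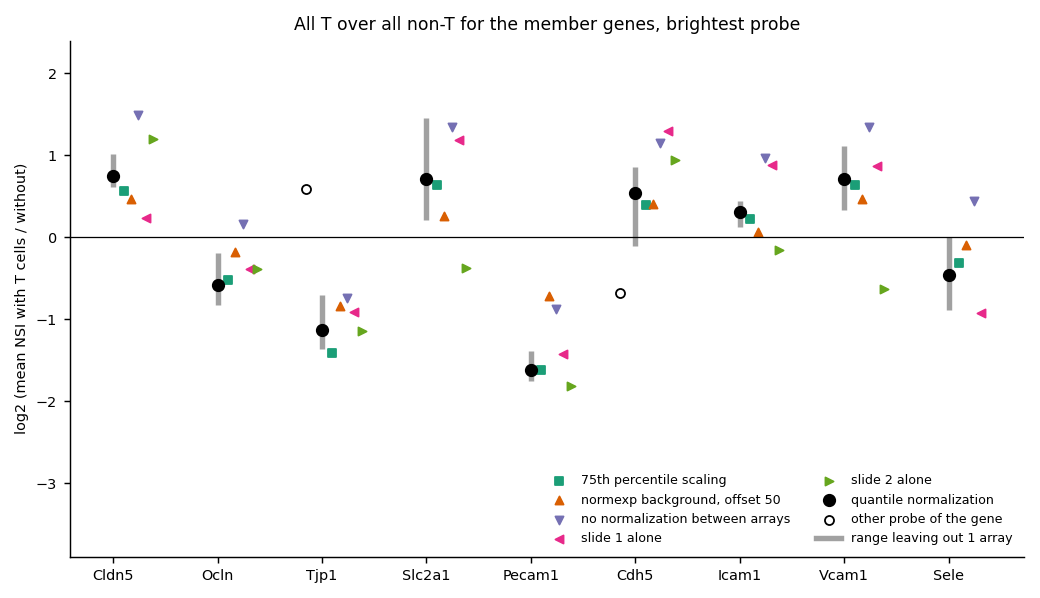
Log2 ratio of mean NSI in all T over all non-T for the 9 members with a measured ratio. Black points are the quantile-normalized values, grey bars the range when 1 array is left out, open circles other probes of the gene, and coloured symbols other processing or a single slide. Pecam1 stays below 0 and Cldn5 above 0 under every setting shown, while the Tjp1 and Cdh5 probes fall on both sides of 0.

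Vwf, the gene of von Willebrand factor, was at the edge of detection. Its brighter probe was well above background in ENMO (31.2) and on no other array, although NMO-IgG only (24.0) and control IgG only (32.4) had similar NSI. EAEcoI (8.75), EAEcoP (4.33) and the healthy control (13.8) were lower. The second probe was well above background in EAEcoP only, at 10.05. No ratio of all T over all non-T can be given for Vwf.

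Cdh5, the gene of the adherens junction protein VE-cadherin, varied widely among arrays of the same side. Its brighter probe read 95.8 in ENMO, 255 in EAEcoI and 90.8 in EAEcoP, against 124 with NMO-IgG only, 38.0 with control IgG only and 140 in the healthy control. EAEcoI was the highest array and control IgG only the lowest. The mean was 1.46-fold higher in all T (limma adjusted p = 0.730), and the log2 ratio turned to -0.11 when EAEcoI was left out. Within slides it was 2.46-fold higher on slide 1 and 1.93-fold on slide 2, and with slide as a block the limma log2 difference was 1.12 (adjusted p = 0.469). The second Cdh5 probe gave 36.1, 48.1 and 11.1 against 64.6, 26.7 (not well above background) and 61.3, a mean 1.60-fold lower in all T. Both probes had EAEcoI highest among the arrays with T cells and control IgG only lowest among those without.

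The leukocyte adhesion genes, which inflammation is known to induce, did not separate the arrays by T cells. Icam1 is the best measured of them. Its means over the spots were 73.2 in ENMO, 62.3 in EAEcoI and 92.5 in EAEcoP, against 66.8 with NMO-IgG only, 44.8 with control IgG only and 72.5 in the healthy control. EAEcoP was the highest, and exceeded the next array, ENMO, by 1.26-fold, past 1.96 SE of the spots. ENMO, the healthy control, NMO-IgG only, EAEcoI and control IgG only followed in this order, and no neighbours among them differed beyond 1.96 SE. With control IgG only, 3 of 10 spots were not well above background and the spots ran from 13.9 to 82.2, while on the other 5 arrays the SD was 0.13 to 0.23 on the log2 scale. The mean was 1.24-fold higher in all T (limma 0.32 ± 0.47, adjusted p = 0.800). On slide 1 it was 1.85-fold higher and on slide 2 it was 1.12-fold lower.

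**Figure D3:**
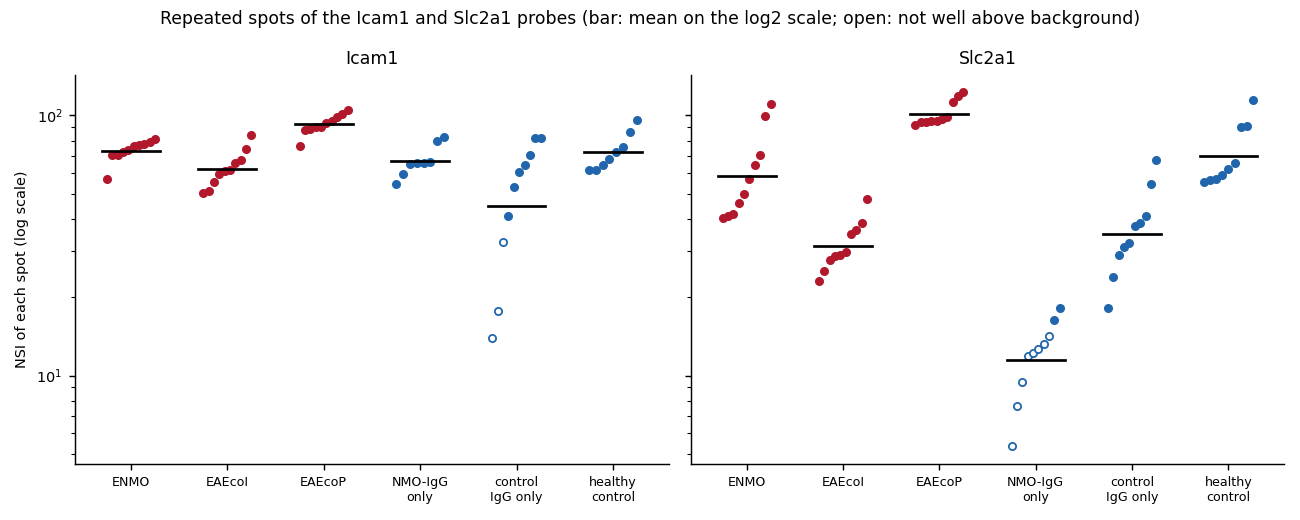
NSI (log scale) of each printed copy of the Icam1 and Slc2a1 probes on the 6 arrays, outlier spots left out, with 8 to 10 spots per array. Bars are means on the log2 scale, red marks arrays with T cells, blue arrays without, and open points are not well above background. The Icam1 means lie between 44.8 and 92.5, and the Slc2a1 means between 11.5 and 101.

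Vcam1 read 96.1 in ENMO, 27.8 in EAEcoI and 108 in EAEcoP, against 19.7 with NMO-IgG only, 55.9 with control IgG only and 66.4 in the healthy control. ENMO and EAEcoP were the highest arrays, but EAEcoI lay below control IgG only and the healthy control. The mean was 1.63-fold higher in all T (limma 0.66 ± 0.69, adjusted p = 0.712). On slide 1, ENMO and EAEcoP were 1.83-fold above control IgG only. On slide 2, EAEcoI was 1.55-fold below the mean of NMO-IgG only and the healthy control, so the direction was not shared between slides.

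Sele was dim. It was well above background in ENMO (12.6), EAEcoI (10.3) and control IgG only (14.0), and not in EAEcoP (2.11), with NMO-IgG only (11.8) or in the healthy control (8.54). The mean was 1.37-fold lower in all T (adjusted p = 0.686), and higher without normalization between arrays.

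By class, 1 of 3 tight junction genes and 2 of 3 leukocyte adhesion genes had a mean above that of all non-T. The median log2 ratio was -0.58 for the tight junction genes and 0.31 for the adhesion genes, beside 0.03 over all 27268 probes. No difference between the classes was tested, since each has 3 genes. The direction differed within each class: Cldn5 opposed Tjp1 and Ocln, and Sele opposed Icam1 and Vcam1. On slide 2 alone, neither Icam1 nor Vcam1 was higher with T cells.

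The added effect of NMO-IgG was read from ENMO against the 2 EAE arrays. A member was counted when its NSI in ENMO was more than 2-fold from both in the same direction, whether or not the lower value was well above background. Of 14 member probes, 1 was counted as higher, the brighter Vwf probe, and none as lower, beside 6.52% higher and 9.26% lower of the 26960 probes well above background on at least 1 of these 3 arrays. For Vwf the EAE arrays were not well above background. ENMO was 3.56-fold above the signal in EAEcoI and 5.58-fold above the lowest signal well above background in EAEcoP. These are not firm bounds, since this probe was not well above background at 32.4 with control IgG only or at 24.0 with NMO-IgG only. With normexp background correction Vwf was not counted. Pecam1 and Tjp1 were nearly level among these arrays, with ENMO 1.14-fold and 1.18-fold above the EAE mean. Icam1 in ENMO was 1.06-fold below the EAE mean.

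For Vcam1 the 2 EAE arrays gave different answers. ENMO was 3.46-fold above EAEcoI and 1.12-fold below EAEcoP. Cdh5 in ENMO was 2.66-fold below EAEcoI and 1.05-fold above EAEcoP by its brighter probe. Slc2a1 in ENMO was 1.85-fold above EAEcoI and 1.74-fold below EAEcoP. The EAE arrays themselves were more than 2-fold apart in NSI for 7 of 13 member probes. In EAEcoI, 4 were higher (Ocln, both Cdh5 probes and Sele) and 3 lower (Vcam1, Slc2a1 and a Tjp1 probe). Over the 26612 probes measured on either array these shares were 25.9% and 26.2%. Sele was not well above background in EAEcoP, and detection gives no more than a bound of at least 1.835-fold higher. The Tjp1 probe was well above background in EAEcoP only, with a bound of at least 1.01-fold lower. EAEcoI and EAEcoP were on different slides and differed in control IgG, so slide and control IgG cannot be told apart.

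Without T cells, NMO-IgG only was compared with control IgG only and the healthy control. None of 11 member probes was more than 2-fold above both (5.41% of the 19150 probes measured on at least 1 of the 3), and 2 were more than 2-fold below both (6.02%), Slc2a1 and Vcam1. Vcam1 with NMO-IgG only (19.7) was 2.84-fold below control IgG only and 3.37-fold below the healthy control. Slc2a1 with NMO-IgG only was at least 2.94-fold and at least 5.87-fold below them. With normexp background correction neither was past 2-fold. Cdh5 with NMO-IgG only was 3.27-fold above control IgG only and 1.13-fold below the healthy control. Control IgG only against the healthy control gave 1 of 11 member probes more than 2-fold higher, the dimmer Tjp1 probe (12.8% of the 17975 probes measured on either), and 2 lower, both Cdh5 probes (16.1%). The brighter Cdh5 probe was 3.69-fold lower there.

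**Figure D4:**
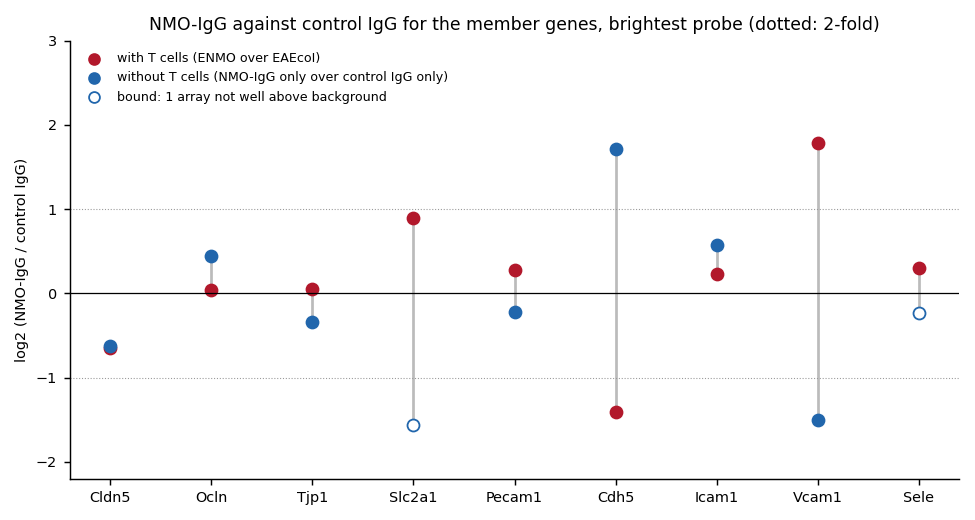
Log2 ratio of NMO-IgG over control IgG for the 9 members with both ratios, in red with T cells (ENMO over EAEcoI) and in blue without (NMO-IgG only over control IgG only). Open points are bounds and dotted lines mark 2-fold. Vcam1 and Slc2a1 are above 0 with T cells and below 0 without, and Cdh5 the other way round. The slides of the NMO-IgG and control IgG arrays are swapped between red and blue, so slide and T cells cannot be told apart here.

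Promoter sequence was read for the 2 adhesion genes that were measured on all 6 arrays, since both are textbook targets of NF-kB, a transcription factor that cytokines activate. The stretches are from RefSeq on the GRCr8 assembly and end before any annotated start of the gene. Matches to the NF-kB-like letters GGNNNTTCC on either strand are in capitals. The Icam1 stretch is chr8:27829595-27829687 on the plus strand and the Vcam1 stretch is chr2:206742784-206743033 on the minus strand.
Icam1: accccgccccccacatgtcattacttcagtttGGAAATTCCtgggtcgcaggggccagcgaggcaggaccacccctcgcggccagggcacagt
Vcam1: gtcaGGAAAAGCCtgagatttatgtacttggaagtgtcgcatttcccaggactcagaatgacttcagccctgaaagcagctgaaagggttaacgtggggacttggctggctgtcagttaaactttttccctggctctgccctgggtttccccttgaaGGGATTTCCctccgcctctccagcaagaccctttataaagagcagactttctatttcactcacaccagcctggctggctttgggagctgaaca
Both printed stretches hold the letters, Icam1 at 1 place that matches on both strands and Vcam1 once on each strand. In the 300 bases from 250 before to 50 after the start, Icam1 has a further match, Tjp1 has 1, and none was found for Cldn5, Ocln, Slc2a1 or Sele. In the same window 18.3% of all 33469 promoters hold these letters. The windows of Tjp1, Ocln and Sele lie inside the annotated gene, past its outermost start. A match is a description of letters. The TATAAA letters are in the windows of Icam1, Vcam1 and Slc2a1 (14.2% of all promoters). The Icam1 window also holds TTCNNNGAA, the letters of a gamma-interferon activated site (8.87%), and no member window holds the AP-1-like letters TGANTCA (7.33%).

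Of 20 genes with a probe among 22 for cytokines, their receptors and NF-kB, 17 were measured. None met the rule for all T in either direction, beside 8.93% higher and 3.67% lower of all 27268 probes. The cytokine Tnf was well above background on 2 arrays and had no ratio, at 10.8 to 13.2 with T cells and 7.97 to 15.4 without. Il1b, well above background on 5 arrays, read 13.2 to 33.6 and 22.2 to 53.0. Ifng was not well above background on any array without T cells, which bounds it at 1.48-fold higher or more with T cells. Of the listed leukocyte integrin chains, only some of which bind the adhesion molecules, 7 of 10 were measured. Itgb1 (99.7, 88.1 and 24.3 against 304, 211 and 114) and Itga6 (106, 84.5 and 117 against 147, 192 and 669) were lower, by 2.96-fold and 3.27-fold, with limma adjusted p of 0.364 and 0.429. Itgam was counted as higher but was well above background on 1 array. Itga4 and Itgal, the partner chains that hold to VCAM-1 and ICAM-1, were not well above background on any array.

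Of 22 other junction genes, 16 were measured, and 2 were counted as higher and 1 as lower. Over all 27268 probes the shares were 8.93% and 3.67%. Cldn10 was 2.94-fold higher (339, 270 and 1103 against 159, 223 and 200). Ctnnb1, whose product beta-catenin binds cadherins, was at least 2.16-fold higher, and Cldn1 was 2.88-fold lower at NSI under 20. Among 17 barrier transporters, 12 were measured and 2 were counted as higher, the lipoprotein receptor genes Lrp1 and Lrp8. Lrp1 was 2.69-fold higher (191, 482 and 353 against 130, 130 and 123) and Lrp8 2.36-fold. None of these 5 passed in limma (adjusted p of 0.315 to 0.447). The transporter genes Abcb1a and Abcg2 were not well above background on any array.

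Of 26 other endothelial genes, 22 were measured, 13 of them on all 6 arrays. The receptor gene Tek was 2.13-fold lower (15.05, 23.1 and 7.90 against 31.7, 24.5 and 41.8, limma adjusted p = 0.474). Flt4 and Sox7 were counted as higher but were well above background on 1 array each. The shares counted over all 27268 probes were 8.93% higher and 3.67% lower. Kdr, Flt1 and Eng, further markers of endothelium, overlapped between the sides, and Emcn was not well above background anywhere. The endothelial list as a whole had a median log2 ratio of 0.06. Among 17 other adhesion molecules of vessels, 13 were measured and 1, Cd151, was counted as higher at NSI under 15. Selp, the gene of P-selectin, was measured in ENMO only (22.7). None of 13 measured genes of vascular matrix and permeability was counted.

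**Figure D5:**
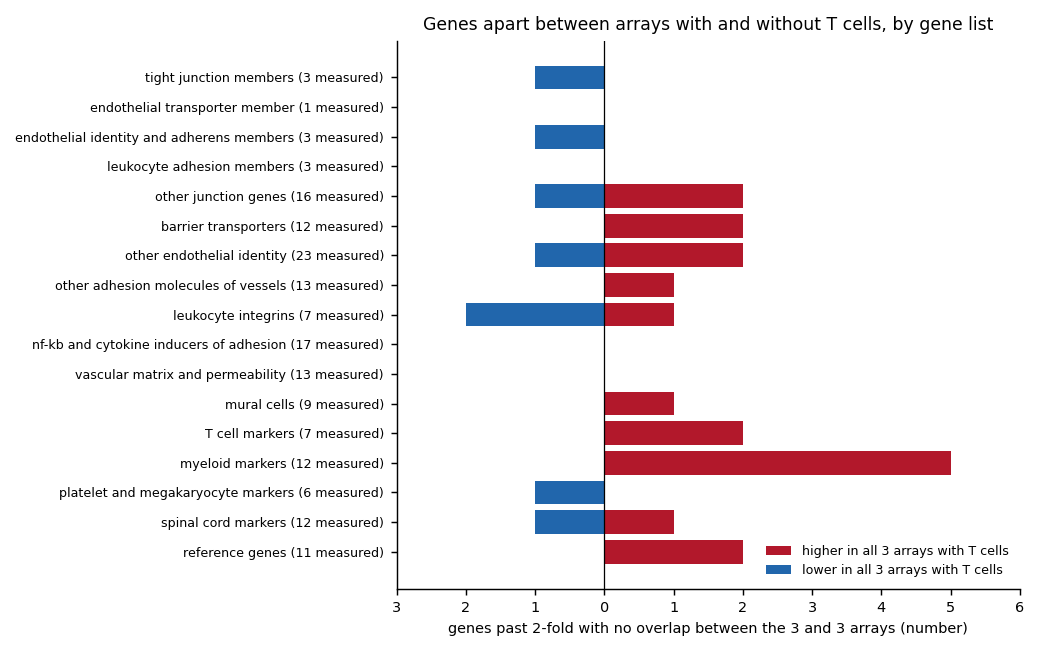
Number of genes in each list, by the brightest probe of a gene, for which all 3 arrays with T cells lie above (red, right) or below (blue, left) the other 3 with means more than 2-fold apart. The number measured is given after each name, and the list of other endothelial genes counts the member Cldn5 among its 23. The myeloid list has 5 genes to the right, and the adhesion members have none on either side.

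Markers of other cells also differed between the sides, though limma called none in any list, and their part in the member results was not tested. Of 12 measured myeloid markers, 5 were counted as higher in all T and none as lower, beside 8.93% and 3.67% of all 27268 probes. Among those not counted, Cx3cr1, Ptprc, Csf1r and Cd68 were 1.88-fold, 1.59-fold, 1.15-fold and 1.02-fold lower, with overlapping sides. Tyrobp was 4.0-fold and Ccr2 at least 1.02-fold higher, and Cd14 had no ratio. Lyz2, the lysozyme gene of macrophages and granulocytes, read 126, 93.6 and 658 with T cells and was not well above background on the other 3 arrays, at least 17.2-fold higher (limma adjusted p = 0.120). Laptm5 was 2.05-fold and Cd163, a macrophage receptor gene, 2.01-fold higher. The other 2 were Aif1, well above background on 2 arrays, and Itgam, on 1 array. The summed NSI of the myeloid list was 5397 to 16620 in all T and 2730 to 4308 in all non-T. Tyrobp, whose sides overlapped, carried much of it, and without Tyrobp the sums were 2575 to 2881 and 1378 to 2250. For 7 measured T cell markers the sums were 1148 to 2642 and 775 to 1072, and Zap70 and Cd8a were counted as higher, Cd8a on 1 array. Leaving out Cd3d, which carried most of each sum, the sums were 224 to 368 and 155 to 262. Of the defining T cell markers, Cd3d (594 to 2348) and Cd5 were well above background on all 6 arrays and Cd3g on 5. Cd247 and Cd3d were 5.70-fold and 1.94-fold higher in all T, and Cd5 and Cd3g 1.27-fold and 1.15-fold lower, all with overlapping sides. Cd3e and Cd2 were not well above background on any array. The 9 measured mural cell markers summed to 4995 to 7744 and 4687 to 6192, with Notch3 alone at 1833 to 5716. Cnn1 was counted as higher, by at least 1.55-fold. Rgs5, Kcnj8, Cspg4 and Anpep were 2.08-fold, 1.74-fold, 1.575-fold and 1.196-fold lower, with overlapping sides. Notch3, Des and Tagln were 1.45-fold, 1.29-fold and 1.08-fold higher, also overlapping, and Pdgfrb had no ratio. The 6 platelet markers summed to 417 to 653 and 523 to 1176, and the 12 spinal cord markers to 2027 to 4023 and 2061 to 2485, with Syp counted as higher and Mog as lower. Of 11 measured reference genes, Gapdh (2.69-fold) and Ppia (at least 2.01-fold) were higher in all T and none was lower.

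The genes whose pattern over the 6 arrays was most like that of a member are given as a description, from 11637 probes measured on all 6 arrays, where a high r is common among so many probes. For Pecam1 they included Slc13a3 (r = 0.996) and Npm1 (0.992). Slc13a3 read 35.5, 26.4 and 25.1 in all T against 194, 315 and 504. For Tjp1 they were Ppif (0.992), Slc5a6 (0.992) and Mettl7a (0.981). Cldn5 was most like Atp2a1 (0.995), Ocln like Hspbap1 (0.998), Cdh5 like Ttll6 (0.962), Icam1 like Fgd2 (0.961) and Vcam1 like Ptges2 (0.979). Between members, r was 0.91 for Pecam1 and Tjp1 and -0.81 for Pecam1 and Cldn5, and 0.40 for Icam1 and Vcam1, each over 6 arrays that share their processing.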

How the data were processed

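The authors deposited, per the file headers, the spot tables of 6 one-colour Agilent 4x44K arrays read with Feature Extraction 10.1.1.1, with intensity values corrected for background and spatial trend and not normalized between arrays, and with flags for outliers and for spots well above background (other columns). Tissue was pooled per group, and its RNA was amplified in 1 round. The tables of 1 intensity per gene were not used.

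After outlier spots were dropped, the log2 signals of repeated spots were averaged per probe and the 6 arrays were quantile-normalized, the method the study used, which gave the NSI. A probe was measured when more than 0.5 of its spots were well above background. Comparisons are ratios of mean NSI. Where no array of a side was measured, the ratio is a bound ("at least") against the lowest signal well above background on each array, or the probe's own signal if higher. This limit is that of the array and can lie below that of a given probe, so such bounds are approximate. All T against all non-T was tested with limma 3.58.1 (R 4.3.3, trended variance, Benjamini-Hochberg over 27456 probes measured on at least 1 array). The other rules took probes with a value on all 6 arrays that were measured on at least 1 of the arrays compared, 27268 for all T against all non-T and fewer for the others. Arrays lay on 2 slides: slide 1 held control IgG only, EAEcoP and ENMO, and slide 2 the others. On simulated data, 200 probes changed 4-fold were estimated at 2.04 on the log2 scale on average, and 0 of them were called. The simulated spread of a probe was that of the 6 arrays about their common mean, so it included any difference between the sides. At this size and that spread the test can miss such differences.

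Gene names came from the scanner tables or, for the other lists, from RefSeq accessions matched to GRCr8 gene tables. Each gene was read from its brightest probe. Each list was described by its counts and up to 3 genes per direction with the largest ratios among those counted. The members and lists were chosen with earlier results of these data known. Nothing in the labels says that a pool was repeated, so p-values measure the spread between 3 pools that also differ in antibody. A gene among the patterns most like a member is not reported here.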

Additional observations from a re-analysis of the deposited data

Results flagged for a closer look

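For 6 members the array with NMO-IgG lay on one side of the array with control IgG when T cells were given (ENMO over EAEcoI) and on the other side when they were not (NMO-IgG only over control IgG only). There is 1 array for each of these groups, so none of the differences was tested. Vcam1 was 3.46-fold higher with T cells and 2.84-fold lower without, a difference of 3.29 between the log2 ratios. Slc2a1 was 1.85-fold higher with T cells and at least 2.94-fold lower without, a difference of at least 2.45. Cdh5 was 2.66-fold lower with T cells and 3.27-fold higher without, a difference of -3.12. In these 3 both ratios were past 1.70-fold, which is 1 SD of a difference between single spots over all repeated probes. In the other 3 both ratios were under it, with differences of 0.50 for Pecam1, 0.40 for Tjp1 and at least 0.53 for Sele. ENMO was on slide 1 and EAEcoI on slide 2, while NMO-IgG only was on slide 2 and control IgG only on slide 1. Slide and antibody therefore cannot be told apart within either ratio. Since the slides ran in opposite directions with and without T cells, a difference between slides would also give ratios on opposite sides. A dependence on T cells and a difference between slides thus cannot be told apart.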

How the results depend on the processing

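No paired analysis was possible because each group has 1 array, so groups share no replicate numbers that mark a common source. Of the 120 recomputed log2 ratios of all T over all non-T for 9 members, 113 moved by less than the spread, 5 moved further and 2 reversed. Both reversals were in Tjp1, at 0.12 with all its probes averaged and 0.59 with its dimmer probe. The sign differed in 10 cases in all, among them Vcam1 (-0.63), Slc2a1 (-0.37) and Icam1 (-0.16) on slide 2 alone, an alternative chosen after seeing the data. For ENMO over EAE, 59 of 66 ratios moved by less than the spread and 12 had the other sign, and for NMO-IgG only over control IgG only 38 of 40 and 4.

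Limma called 423 probes without normalization between arrays, where the median log2 difference of all probes was 0.73, 5 without a filter on dim probes, 35 with antibody as a term and 0 to 313 with 1 array left out (313 without ENMO, 3 without EAEcoI). It called no member in any setting. For Pecam1 the adjusted p ran from 0.170 to 0.700 over these settings. The member probes higher in all T were 2 without normalization (Cldn5 and the dimmer Tjp1 probe) and 0 to 2 with 1 array left out (1 without EAEcoI, 2 without control IgG only). The member probes lower in all T were 0 with normexp or without normalization and 1 to 2 with 1 array left out (1, Pecam1, without the healthy control). ENMO above both EAE arrays counted 0 with normexp or only probes measured on all 6 arrays, and ENMO below both counted 1 without normalization. NMO-IgG only below both other arrays counted 0 with normexp and 1 with probes measured on all 6. EAEcoI over EAEcoP counted 1 higher and 0 lower with normexp, and 2 higher and 1 lower with probes measured on all 6. Control IgG only over the healthy control counted 0 higher with normexp, without normalization or with probes measured on all 6, while its lower count was 4 with scaling to the 75th percentile, 8 without normalization and 1 with probes measured on all 6. The cause of these shifts was not tested.

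Pools hide the spread between rats, and 1 array per group leaves no error for the antibody comparisons. Detection limits Vwf, Sele and the second probes of Ocln and Tjp1. Fixed tissue and amplification can shift signal with the distance of a probe from the 3′ end, which was not tested here.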
